A study of Mus musculus with 88 samples.

Results

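The genes described here encode the proteins of the cytoplasmic ribosome. They were chosen by name alone: every array probe with a single gene symbol of the form Rpl or Rps followed by a number, together with Rplp0, Rplp1, Rplp2 and Rpsa, and without the Rps6k kinases, pseudogenes and the mitochondrial ribosomal proteins. This gave 76 probes for 59 genes, 40 of the large and 19 of the small subunit, of 18067 genes on the array. For the 12 genes with several probes, the probe with the highest mean was kept. The 11 ribosomal protein probes that carried several symbols were left out, so that Rps27 and Rpl12, for example, are not analysed here, and neither are Rps6, Rpl10, Rps4l, Rpl10l and Rpl22l1.

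RNA was measured on 88 one-colour arrays from 4 transplanted mouse tumours, in 44 groups of 2 arrays. The titles describe NR-S1 and SCCVII as squamous cell carcinomas and NFSa as a fibrosarcoma, all of spontaneous origin in C3H/He mice, and #8520 as a fibrosarcoma of a C3H mouse that radiation had induced. Each was grown in the hind legs of C3H/HeNrs mice, so that every group, the untreated ones included, is whole tumour tissue with the host's stroma and blood cells and, at this site, neighbouring leg muscle. The carbon-ion arm held 32 arrays: untreated tumours and tumours taken 6 h, 1 day and 3 days after 30 Gy. The gamma-ray arm held 56 arrays, with its own untreated tumours and the same times after 30 Gy and after 50 Gy. The sources used here give neither the age of the mice nor whether paired arrays stem from different animals, so p-values measure the spread between arrays, which may be technical.

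The labels were checked against marker genes in the 16 untreated arrays. The keratin Krt5 averaged 9.04 (carbon-ion arm) and 7.72 (gamma-ray arm) in log2 intensity in untreated NR-S1, but -1.54 and -1.70 in SCCVII, close to its level in NFSa (-1.94 and -1.46) and in #8520 (-2.22 and -1.70). Krt14 likewise averaged 8.96 and 7.73 in NR-S1 and -2.74 and -2.45 in SCCVII, so the defining keratins of a squamous carcinoma were at the dim end in the tumour labelled SCCVII. Among arrays, 8 stood apart: those taken 1 and 3 days after 50 Gy of gamma rays in SCCVII and #8520. Their first percentile of intensity lay between 0.297 and 0.378, against 0.0128 to 0.134 on the other 80 arrays, and the averages after 50 Gy at those times are also given for NR-S1 and NFSa alone.

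Cytoplasmic ribosomes join a small subunit, which reads the messenger RNA, to a large subunit, which forms the peptide bond, and each subunit holds many different proteins, each in a single copy or a few, on its ribosomal RNA. Messenger RNAs of most of these proteins begin with a cytosine followed by an uninterrupted run of pyrimidines, the 5′ terminal oligopyrimidine or TOP motif, through which mTORC1 and LARP1 adjust their translation and stability together. When ribosome assembly is disturbed, free Rpl5 and Rpl11, and also Rpl23 and Rpl26, can bind Mdm2 and release p53, the transcription factor that irradiation activates as well.

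The region around the transcription start was searched for such a run, which most members did not show at the annotated start. RefSeq (GRCm38.p6) promoter sequences were matched for 47 of the 59 genes. The windows below run from 15 bases before to 15 bases from the annotated start and are shown for members below the bright group described next, for some of the brightest members, and for the p53-responsive Rps27l. Of these 11 windows 8 carry the run, a larger share than among all members. Capitals mark an uninterrupted run of at least 8 C or T that begins within 10 bases of the start.
Rps9: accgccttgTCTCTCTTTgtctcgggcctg
Rps24: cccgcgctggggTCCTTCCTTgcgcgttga
Rpl14: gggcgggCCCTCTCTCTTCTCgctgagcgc
Rpl15: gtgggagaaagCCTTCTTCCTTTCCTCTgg
Rps15a: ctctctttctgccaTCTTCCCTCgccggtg
Rpl27a: gacttcgtgagCTCCTCCCTTTTCCCTTTC
Rpl35: cggccccgCCCTTTCCTCTTTCTCTCgaac
Rps10: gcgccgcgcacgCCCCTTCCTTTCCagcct
Rpl26: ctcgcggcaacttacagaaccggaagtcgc
Rps7: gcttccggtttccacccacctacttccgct
Rps27l: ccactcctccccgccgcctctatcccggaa

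They lie at chr7:3704026-3704055 (plus strand) for Rps9, chr14:24490663-24490692 (plus) for Rps24, chr9:120571502-120571531 (plus) for Rpl14, chr14:18270972-18271001 (minus) for Rpl15 and chr7:118116133-118116162 (minus) for Rps15a. Those of the bright members lie at chr7:109519180-109519209 (plus) for Rpl27a, chr2:39005117-39005146 (minus) for Rpl35 and chr17:27635230-27635259 (minus) for Rps10. Those without a run lie at chr11:68901551-68901580 (plus) for Rpl26, chr12:28635939-28635968 (minus) for Rps7 and chr9:66946071-66946100 (plus) for Rps27l. Such a run was present in 14 of the 47 members (29.8%), in 5 of 69 mitochondrial ribosomal protein genes (7.25%) and in 937 of the 10777 tested genes with a promoter in the table (8.69%). The letters CTTCCG, or CGGAAG on the other strand, stood in the 250 bases before the start in 23 of the 47 members (48.9%), in 43.5% of the mitochondrial ribosomal protein genes and in 22.3% of the tested genes. The pyrimidine run was found in 8 of 30 members with a promoter in the bright group and in 6 of 17 of the others. Annotated starts can differ from the ones used in these tumours.

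Most members were among the brightest features of every array. Of the 59, 57 passed the filter that left out the dimmest 25% of genes, and 48 of these 57 had a mean in the brightest 10% of the genes tested. The exceptions were Rpl34 (mean log2 intensity -2.68) and Rps2 (-3.68), both abundant mRNAs in most cells, whose probes were too dim to test. Intensities of different probes cannot be ranked as expression levels, so a dim probe does not show a rare mRNA.

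At the bright end the members lay in a narrow band. The upper end of an array was taken as its 50th highest probe value, and a probe was called near it if it lay within 0.25 log2 units, definitions chosen after the values were seen. By this measure 40 members, 29 of the large and 11 of the small subunit, were near the upper end on more than 44 of the 88 arrays, 7 were near it on 1 to 44 arrays and 12 never were. Rpl8 (47 arrays) lay just inside that limit and Rps24 (42 arrays) just outside it. Of all genes tested, 0.668% fell in the bright group, against 70.2% of the members tested, and 40 of its 90 genes were members. The 50 others included Actb, Actg1 and Ppia, near the upper end on all 88 arrays, and Tpt1 (85 arrays) and Pabpc1 (84 arrays), whose mRNAs also carry a TOP motif.

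**Figure D1:**
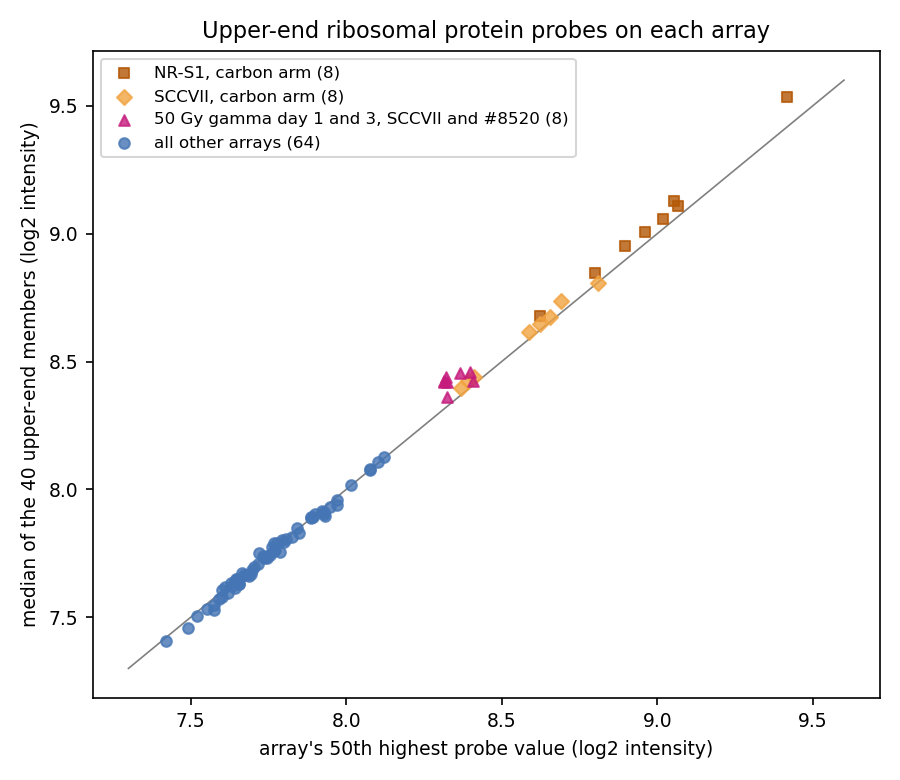
For each of the 88 arrays, the median log2 intensity of the 40 bright ribosomal protein genes against the upper end of the array, the 50th highest probe value; the line marks equal values. The points lie along the line, with the median between 0.046 below and 0.12 above the upper end, while the upper end itself ranges from 7.42 to 9.42.

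The level of these 40 members followed the upper end of each array. Their median minus the upper end ranged only from -0.046 to 0.12 over the 88 arrays, although the upper end varied from 7.42 to 9.42 with a median of 7.80. Members are themselves among the probes that set it, so the 2 values are not independent. On the 80 arrays outside the 8 that stood apart, the SD among the 40 members on an array lay between 0.064 and 0.453 log2 units. For these members, then, a difference between arrays could not be told apart from a difference in where the array's values end, and whether the range of the scanner limits them was not tested.

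**Figure D2:**
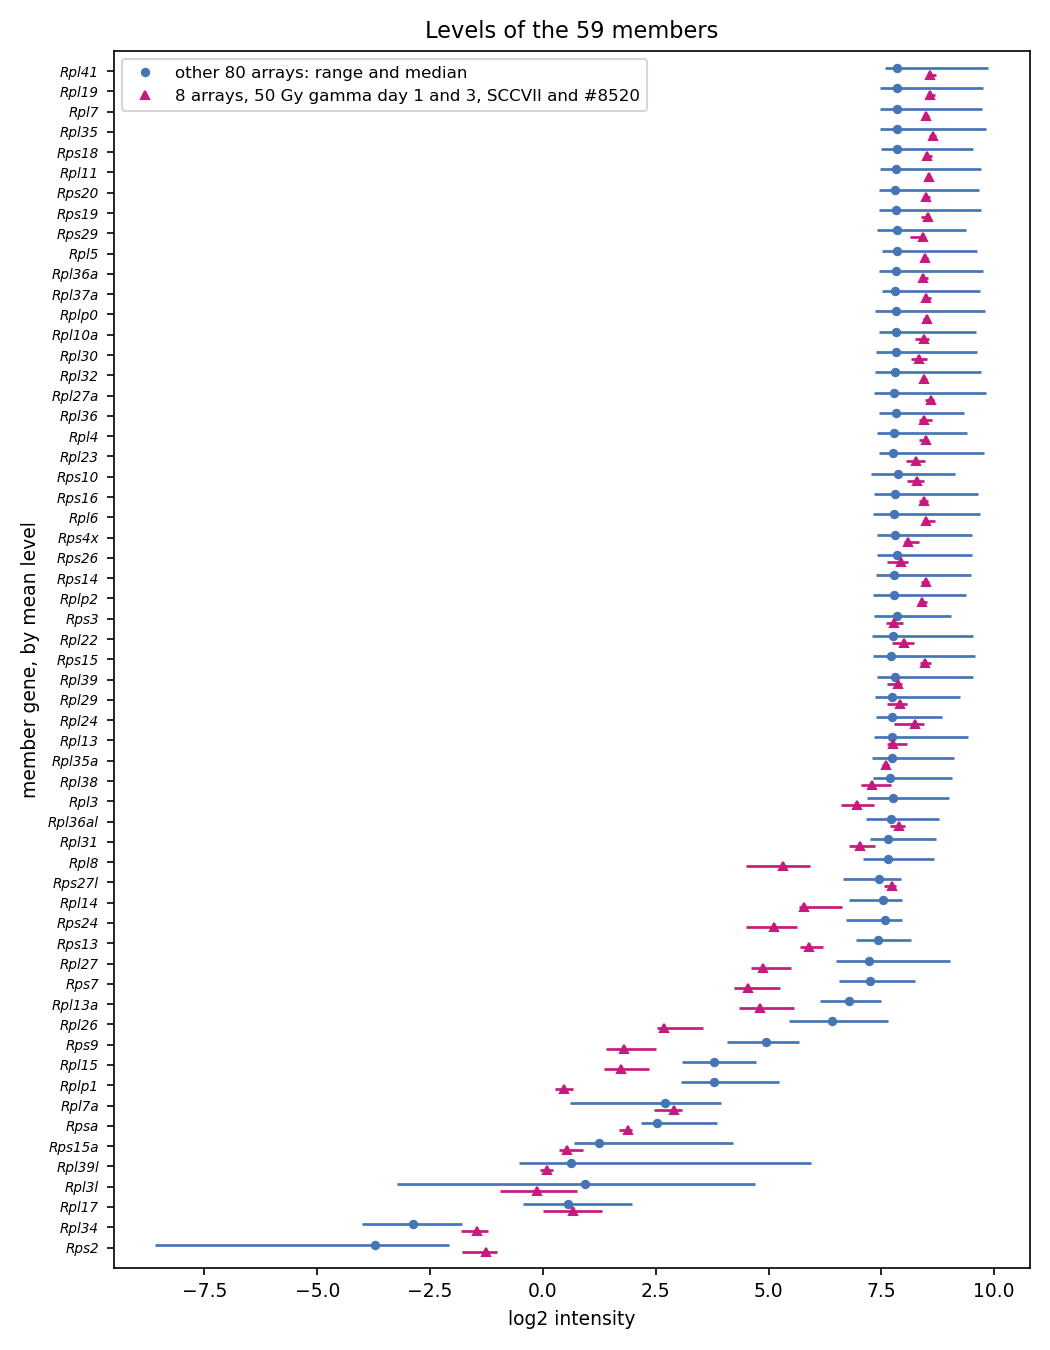
Log2 intensity of each of the 59 members: the line spans the lowest to the highest of the 80 arrays, with the median as a circle, and the line with a triangle gives the same for the 8 arrays taken 1 and 3 days after 50 Gy in SCCVII and #8520. Bright members crowd near 8, and members at the edge of that band or below it, such as Rpl8, Rps24, Rpl26 and Rps9, lie below their range of the 80 arrays on the 8 arrays.

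The spread was shared within pairs of arrays as well. Between the 2 arrays of a group, the median of the 40 bright members differed by a median of 0.073 over the 44 groups, close to the 0.077 by which the upper end differed, while the median of all genes differed by 0.029. In the median group, 31 of the 40 differed in the direction of their own median. Part of that count is built in, as 20 did so in NFSa at day 3 after 30 Gy of gamma rays, where the median difference was -0.0058. The largest gap was at day 1 of carbon-irradiated NR-S1, where the bright members differed by 0.584 and the upper end by 0.520. There replicate 2 had the higher upper end and lower values of members below it: Rpl26 read 7.04 on replicate 1 and 6.00 on replicate 2, and Rplp1 read 4.90 and 3.70.

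Untreated tumours differed in every member tested. All 57 passed the test for a difference among the 4 tumours (moderated F test in limma, Benjamini-Hochberg adjusted p under 0.05), but so did 91.3% of all genes tested. After quantile normalization 18 of the 57 did. That step gives all arrays the same upper end, near which 40 of the 57 lie, so a loss of calls there is partly built in. For it, for centring each array on its median and for untreated arrays of both arms, the share of all genes is not given, here or below. Nor is it given for only the arrays compared, another filter, the replicate block or fits with arrays left out. The 2 beam arms also differed without any irradiation. The bright members' median was higher in the carbon-ion arm by 1.39 in NR-S1 (40 of 40 members higher), 0.719 in SCCVII (40 of 40), 0.254 in NFSa (40 of 40) and 0.151 in #8520 (36 of 40). The upper end differed alike, at 9.06 against 7.71 in NR-S1 and 8.48 against 7.78 in SCCVII, and the 50 other bright genes differed by 1.01 and 0.619. Members below the bright group differed less in NR-S1 (0.325), SCCVII (-0.026) and NFSa (0.178), but not in #8520 (0.174). Each irradiated group was therefore compared with the untreated arrays of its own arm; using those of both arms moved the carbon-ion counts to between 43 and 49 members, most of them higher, and the counts after 30 Gy of gamma rays to between 46 and 48, most of them lower.

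Some members differed clearly by tumour. Rpl39l, a paralog of the exit-tunnel protein Rpl39 that is best known from testis, had group means of 4.70 to 5.94 in NFSa. In NR-S1 they ran from 0.13 to 0.88, in SCCVII from 0.10 to 0.67 and in #8520 from -0.38 to 0.50, so its NFSa values never overlapped the others. Rps15a, a protein of the small subunit, had a median group mean of 3.59 in NR-S1 against 1.11 in SCCVII, 1.18 in NFSa and 1.08 in #8520, again without overlap (lowest NR-S1 group mean 2.62, highest elsewhere 1.44). For Rpl26 the median group mean was 6.97 in NR-S1 and 6.26, 6.24 and 6.35 in SCCVII, NFSa and #8520, but the groups overlapped, and within SCCVII (2.54 to 6.68) and #8520 (2.77 to 6.74) the groups spread far wider than that. The partner Rpl39 lay in the bright band of every tumour.

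At 6 h after 30 Gy of carbon ions few members were called. Averaged over the 4 tumours, 2 of 57 passed the test, against 40.5% of all genes: Rps27l rose by 0.38 log2 units (SE 0.059, limma adjusted p = 3.3e-07) and Rpl7a fell by 0.33 (SE 0.044, adjusted p = 1.1e-08). Leaving out replicate 1 of untreated SCCVII gave 4, and quantile normalization 3 (2 higher, 1 lower). The median difference over the 57 was -0.023, against -0.013 over all genes. As this is bulk tissue, fewer cells of a type and less RNA per cell cannot be told apart, here or below.

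By day 1 after carbon ions, 12 of 57 members passed, 11 higher and 1 lower, against 42.1% of all genes. Apart from Rpl3l and Rps27l the rises were small and in bright members: Rplp0, the anchor of the ribosomal stalk, by 0.22 (SE 0.063, adjusted p = 0.0036), Rpl37a by 0.21 and Rpl39 by 0.20. The upper end rose alongside in all 4 tumours, by 0.096 in NR-S1, 0.27 in SCCVII, 0.041 in NFSa and 0.12 in #8520, and the bright members' medians by 0.12, 0.24, 0.035 and 0.10. After quantile normalization 4 passed, 2 higher and 2 lower, and after centring each array on its median 9, 6 higher and 3 lower. Fitting only the arrays compared gave 4. For this fit and the fits with an array left out, the share of all genes is not given. The count was 34 without replicate 1 and 5 without replicate 2 of NR-S1 at day 1, 21 and 6 without replicate 1 or 2 of untreated SCCVII, 7 without replicate 2 of SCCVII at day 1 and 7 without replicate 1 of untreated NFSa.

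Of the conditions outside 50 Gy, day 3 after carbon ions had the most members called lower. Of 57 members 21 fell and 2 rose, a smaller share called than the 68.2% of all genes. Of 13415 genes 5606 fell and 3548 rose, so falls were no more frequent among the members. The median was -0.10 over the members and -0.079 over all genes. Among members, with other genes of like brightness not counted, falls were more frequent below the bright group (11 of 17) than in it (10 of 40). The leaders were Rpl7a (-0.70), Rpl14 (-0.43), the core protein Rpl3 (-0.40), Rpl26 (-0.40) and Rps7 (-0.38), and Rps13, Rps24, Rps9, Rpl15, Rpl27 and the stalk protein Rplp1 (-0.24) fell too. In NFSa, for example, Rpl26 read 6.09 and 6.08 on the untreated arrays and 5.50 and 5.46 at day 3, without overlap, while in SCCVII it read 5.92 and 6.18 and then 5.90 and 6.06, which overlap. After quantile normalization 11 passed, 8 lower, among them Rpl26 at -0.32 (adjusted p = 0.01) and Rpl14 at -0.34 (adjusted p = 0.00085). The log2 of the summed intensity of macrophage markers was higher than untreated at that time in every tumour. It went from 6.81 to 9.20 in NR-S1, 9.34 to 10.15 in SCCVII, 8.83 to 9.81 in NFSa and 8.83 to 9.58 in #8520. The part of other cells in the members' differences was not tested.

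The bright members differed in sign between tumours at day 3. Their median differed from untreated by -0.353 in NR-S1, 0.123 in SCCVII, -0.0065 in NFSa and -0.102 in #8520, and the upper end by -0.350, 0.161, -0.016 and -0.104. The same 50 other bright genes gave -0.347, 0.146, -0.034 and -0.146. Members below the bright group had medians of -0.305, -0.00097, -0.357 and -0.257.

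Gamma rays of 30 Gy moved few members. At 6 h 6 passed (5 higher, 1 lower) against 37.7% of all genes, none of them bright: Rpl3l, Rps27l, Rplp1 (0.24), Rps13 and Rpl27 rose and Rpl7a fell. On day 1, 14 passed (11 higher, 3 lower) against 42.8%, led by Rps9 (0.34), which lies near the mRNA entry of the small subunit, Rps27l, Rplp1 (0.32), Rps7 (0.23) and Rps13 (0.19). On day 3, 6 passed (3 higher, 3 lower) against 54.1%, Rpl17, Rps15a and Rps27l higher and Rpl3l, Rpl7a and Rpl39l lower. The members' medians were 0.057, 0.11 and 0.039 at the 3 times, and those of all genes 0.0028, 0.010 and -0.021.

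These small counts moved with single arrays and with scaling. Leaving out replicate 2 of untreated SCCVII or replicate 1 of SCCVII at 6 h took the 6 h count to 3. The day 1 count was 7 and 23 without replicate 1 or 2 of untreated #8520, 8 without replicate 1 of untreated SCCVII or of untreated NR-S1, and 9 without replicate 2 of untreated NFSa, replicate 4 of SCCVII or replicate 4 of #8520. Centring each array on its median gave 30 members at day 1 (28 higher) and 15 at day 3 (13 higher), and quantile normalization 6 (4 higher) and 8 (3 higher), with 7 (2 higher) at 6 h. Within tumours the bright members again went with the upper end: in SCCVII at day 1 they were 0.279 higher, the upper end 0.283 and the 50 other bright genes 0.288.

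At 6 h after 50 Gy of gamma rays 16 members passed, 14 higher and 2 lower, against 49.7% of all genes. Of these, 11 were bright members with small rises, such as Rpl6 (0.19). Outside the bright group Rpl3l (1.33), Rps27l (0.39) and Rplp1 (0.25) rose and Rpl7a (-0.44) and Rpl17 (-0.22) fell. The count was 8 and 25 without replicate 1 or 2 of untreated #8520, 9 without replicate 2 of untreated NFSa or replicate 1 of untreated NR-S1, and 10 without replicate 1 of SCCVII or of NR-S1 at 6 h after 50 Gy. After quantile normalization it was 6 (4 higher), and after centring 35 (33 higher).

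1 and 3 days after 50 Gy, the 4 tumours parted. Averaged over all 4, 53 of 57 members passed at day 1 (35 higher, 18 lower; 68.2% of all genes) and 50 at day 3 (34 higher, 16 lower; 73.4%). In NR-S1 and NFSa alone 16 passed at day 1 (14 higher; 29.2% of all genes) and 6 at day 3 (4 higher; 46.2%), so the counts rest on the 8 arrays of SCCVII and #8520. In SCCVII alone 47 passed at day 1 (30 higher, 17 lower; 65.2% of all genes) and 47 at day 3 (29 higher, 18 lower; 69.8%). In #8520 alone 52 passed at day 1 (32 higher, 20 lower; 66.0%) and 51 at day 3 (34 higher, 17 lower; 67.7%).

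The direction went with where a member lay on the array. The bright group was set on all 88 arrays, including the 8 that stand apart. A member that drops on those 8 is less often near the upper end, so the split is partly built in. Rps24, for example, was near it on 42 of the other 80 arrays and on 0 of the 8, and counts below the bright group. At day 1 after 50 Gy, 34 of the 40 bright members were called higher and 3 lower (Rpl3, Rpl31 and Rpl8), whereas of the 17 tested members below the bright group 15 were called lower and 1, Rps27l, higher. At day 3, 32 bright members were higher and the same 3 lower, and 13 of the 17 others were lower, with Rps27l and Rpl17 higher.

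**Figure D3:**
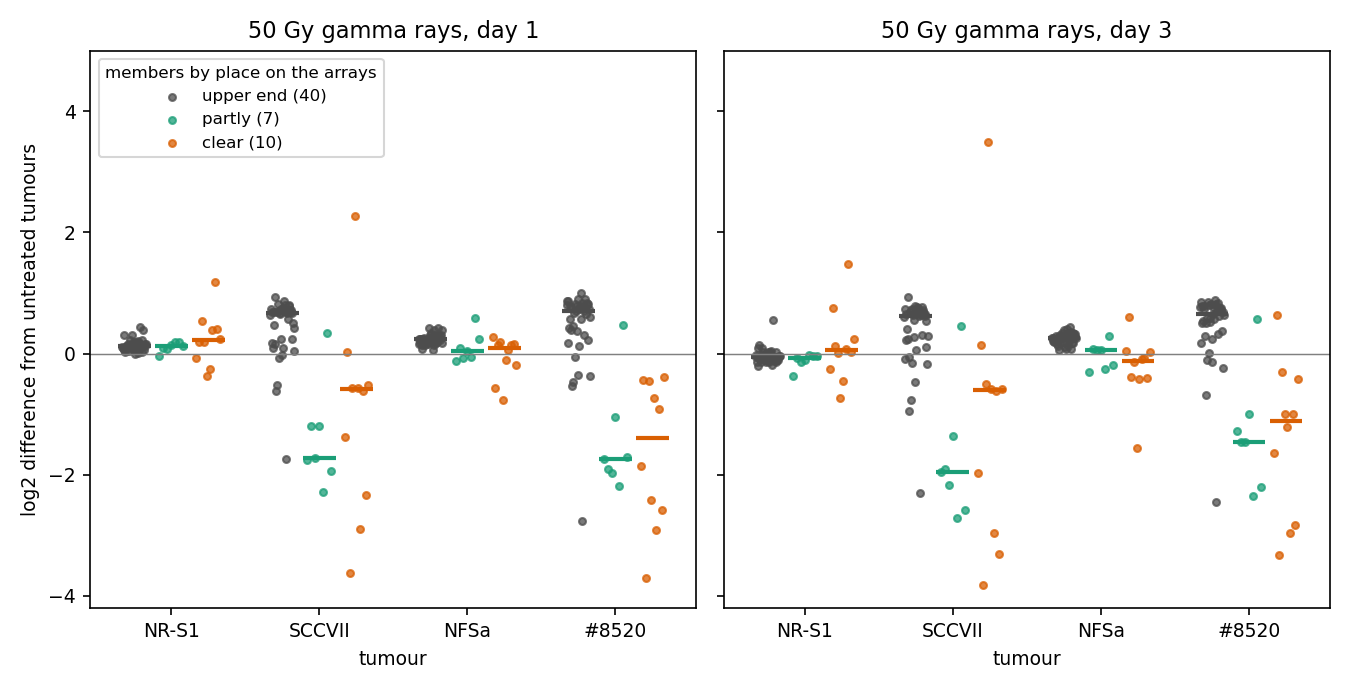
Log2 difference from the untreated tumours of the gamma-ray arm at 1 day (left) and 3 days (right) after 50 Gy, by tumour; each point is 1 of the 57 members tested, coloured by its place on the arrays (near the upper end on more than 44 arrays, partly, or clear of it on all), with the median as a bar. In SCCVII and #8520 most members near the upper end lie above 0 and most of the others below it, down to -3.82 for Rpl26.

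Rpl26, which binds Mdm2 and sits at the exit of the peptide tunnel, fell the most. In SCCVII it read 6.38 and 6.35 on the untreated arrays, 2.87 and 2.60 at day 1 and 2.52 and 2.55 at day 3. In #8520 it read 6.41 and 6.55 untreated, 2.55 and 2.99 at day 1 and 2.77 and 3.55 at day 3. The irradiated arrays lay far below every untreated one, whereas in NR-S1 at day 1 it read 7.32 and 7.44 and in NFSa 6.17 and 6.60, inside or above the untreated range of their arms. At day 3 it read 6.90 and 7.04 in NR-S1, and 5.79 and 5.93 in NFSa, below both untreated arrays there (6.14 and 6.35), though the difference of -0.39 was not called (adjusted p = 0.16). The differences were -3.63 at day 1 (SE 0.215, adjusted p = 2.7e-20) and -3.82 at day 3 in SCCVII, and -3.71 and -3.32 in #8520.

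Other members fell in the same 4 groups, among them Rpl8, which counts in the bright group. Rplp1, the acidic stalk protein that recruits translation factors, read 3.46 and 3.27 in untreated SCCVII, 0.54 and 0.39 at day 1 and 0.53 and 0.27 at day 3, differences of -2.90 and -2.96, beside -2.91 and -2.96 in #8520. Rps9 differed by -2.33 and -3.32 in SCCVII and by -2.58 and -2.84 in #8520. Rps24, a gene mutated in Diamond-Blackfan anaemia, read 7.51 and 7.47 in untreated SCCVII, 5.32 and 5.11 at day 1 and 4.50 and 5.06 at day 3. Rpl8, at the core of the peptidyl transferase centre, read 7.53 and 7.71 in untreated SCCVII and 5.92 and 5.84 at day 1. In #8520 Rpl8 read 7.40 and 7.37 untreated, 4.75 and 4.49 at day 1, a fall of 2.76, and 4.50 and 5.35 at day 3, a fall of 2.46. These values dropped out of the range of the untreated arrays in every case.

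In contrast, most of the bright members were called higher. Rpl6 read 7.71 and 7.76 in untreated SCCVII and 8.56 and 8.50 at day 1, and 7.49 and 7.66 in untreated #8520 and 8.69 and 8.45 at day 1. Over the 4 tumours it rose by 0.55 at day 1, followed by Rps19, the most frequently mutated gene in Diamond-Blackfan anaemia (0.55), Rpl19 (0.52), Rpl27a (0.52) and Rps14, whose loss underlies the anaemia of a myelodysplastic syndrome (0.52). The day 1 differences in NR-S1 and NFSa alone were 0.21 for Rpl6, 0.32 for Rps19, 0.27 for Rpl19, 0.18 for Rpl27a and 0.19 for Rps14, of which Rps19 and Rpl19 passed (adjusted p = 0.019 and 0.048). The value of Rpl27a is that of its kept probe: over the 4 tumours, the mean of all its probes gave -0.26 at day 1 and -0.35 at day 3. The bright members' medians were 0.672 (SCCVII) and 0.704 (#8520) higher at day 1 and 0.622 and 0.647 at day 3, beside upper ends that were 0.605, 0.632, 0.537 and 0.675 higher. The 50 other bright genes were higher too, with medians of 0.416, 0.285, 0.378 and 0.344.

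Whether the bright members rose depended on scaling. After quantile normalization 22 members passed at day 1 over the 4 tumours (5 higher, 17 lower) and 24 at day 3 (3 higher, 21 lower), with 3 or 4 higher and 15 to 20 lower in either tumour alone. Rps14 and Rpl27a no longer passed at day 1 (adjusted p = 0.18 and 0.073), and the rise of Rpl6 shrank to 0.16 (adjusted p = 0.015). The falls of Rpl26 and Rplp1 at day 1 stayed called and shrank somewhat. In SCCVII they went from -3.63 to -3.25 and from -2.90 to -2.50, and in #8520 from -3.71 to -3.45 and from -2.91 to -2.64. Centring on the array median gave more rises instead, 39 higher and 12 lower at day 1 and 41 higher and 13 lower at day 3. In SCCVII alone it gave 40 higher and 11 lower at day 1 and 39 and 13 at day 3, and in #8520 alone 36 and 14 at day 1 and 37 and 15 at day 3.

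The dimmest members moved up on the same arrays. Rpl34, which was not tested, read between -1.81 and -1.21 on the 8 arrays and between -4.01 and -1.79 on the other 80, and Rps2 read between -1.80 and -1.02 against -8.59 to -2.08. Probes of the same gene could therefore point in opposite directions. For Rps13, the kept probe read between 5.71 and 6.20 on the 8 arrays, below its range of 6.95 to 8.16 on the others, while its second probe, with a mean of -2.28, was 2.30 higher at day 1 in SCCVII and 2.38 in #8520. For Rpl27a, the kept probe rose by 0.94 in SCCVII at day 1 while a second, with a mean of 4.31, differed by -2.07 in SCCVII and -2.08 in #8520. A second Rpl11 probe with a mean of 7.33 differed by -0.964 and -0.612, and the third Rpl22 probe, at 4.14, differed by -0.043 and 0.41. An Rpl7 probe with a mean of 7.65 differed by -0.42 and -0.52, and the second Rps4x probe, at 7.60, by -0.39 and -0.46. Probes of Rps13, Rpl27a, Rpl11, Rpl7 and Rps4x thus disagreed in sign at day 1 in both tumours. The directions of these genes after 50 Gy, also within the counts, are those of the kept probes only.

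The differences in SCCVII and #8520 were set side by side. Over the 17 members below the bright group, their differences correlated with r = 0.59 at day 1 and 0.73 at day 3, and over all 57 members with r = 0.84 and 0.87, against 0.66 and 0.64 over all genes tested. The corresponding values for NR-S1 and NFSa were 0.21 and 0.33 over the 57 members. These correlations are across genes, which are not independent, and members share brightness, which goes with the direction. In the whole array 9.13% (SCCVII) and 11.4% (#8520) of genes were more than 1 log2 unit lower at day 1, and 11.3% and 10.4% at day 3. Of the 17 members below the bright group 10 and 11 were at day 1, and 10 and 12 at day 3. That group was set with these same arrays included, so its larger share is partly built in. Other genes of like brightness were not counted. Rpl3l differed in sign between the 2 tumours, at 2.27 in SCCVII and -2.42 in #8520 at day 1 and at 3.49 and -0.99 at day 3.

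The difference between the tumour pairs was tested directly. The response to 50 Gy in SCCVII and #8520 differed from that in NR-S1 and NFSa in 48 members at day 1 (28 higher, 20 lower; 63.6% of all genes) and 50 at day 3 (31 higher, 19 lower; 62.7%). Rpl26 differed by -4.01 and -3.44, Rplp1 by -3.12 and -2.95, Rps9 by -2.74 and -2.90, Rpl8 by -2.45 and -2.35 and Rps24 by -2.29 and -2.39. After quantile normalization 19 and 23 members differed, of which 17 and 18 were lower, with Rpl26 at -3.58 and -3.13, and after centring 51 (38 higher) and 50 (36 higher). Markers of other cells moved in these 4 groups as well. The log2 of the summed intensity of macrophage markers (10 of 12 measured) was 9.28 in untreated SCCVII of the gamma-ray arm, 8.92 at day 1 and 9.66 at day 3, and 8.88, 9.19 and 10.09 in #8520. That of skeletal muscle markers (11 of 12) was 4.43, 6.18 and 8.62 in SCCVII and 9.15, 6.30 and 8.17 in #8520. Of 10 muscle markers tested, 10 rose in SCCVII on each day (medians 1.86 and 4.20), and 9 fell in #8520 on each day (medians -2.89 and -0.79). The sum of keratinocyte markers (12 of 12) was 5.55, 4.39 and 5.22 in SCCVII and 5.21, 4.27 and 4.42 in #8520, although of 10 tested 5 rose and 3 fell in SCCVII at day 1 and 6 rose and 2 fell at day 3, and in #8520 6 rose and 3 fell and then 6 rose and 2 fell. Their part in the members' differences was not tested, nor was that of the raised dim end of these arrays.

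Among the paralogs, Rps27l followed irradiation most evenly. It encodes a near copy of Rps27 and is a direct p53 target. In NFSa it read 6.87 and 6.68 on the untreated carbon-arm arrays and 7.46 and 7.52 at 6 h after carbon ions, and 6.98 and 6.77 on the untreated gamma-arm arrays and 7.53 and 7.51 at 6 h after 50 Gy. No irradiated array of NFSa at 6 h or day 1 overlapped the untreated ones of its arm. In NR-S1 the same gene moved less, from 7.39 and 7.56 untreated to 7.66 and 7.56 at 6 h after 50 Gy, which overlap.

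Averaged over the tumours, Rps27l rose in 8 of 9 conditions. The differences were 0.38 at 6 h and 0.46 at day 1 after carbon ions (adjusted p = 3.3e-07 and 5.2e-09), 0.35, 0.32 and 0.21 after 30 Gy of gamma rays and 0.39, 0.40 and 0.32 after 50 Gy (SE 0.059 throughout). At day 3 after carbon ions the difference was 0.070 (adjusted p = 0.29), and after quantile normalization 0.15 (adjusted p = 0.012). With SCCVII and #8520 left out, the differences after 50 Gy were 0.38 at day 1 (adjusted p = 0.00026) and 0.13 at day 3 (adjusted p = 0.21). By tumour it was called in 1 of the 9 conditions in NR-S1, 7 in SCCVII, 8 in NFSa and 5 in #8520. At 6 h after carbon ions the tumours differed (moderated F test, adjusted p = 0.04). Rps27l lay near the upper end on 24 of the 88 arrays.

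**Figure D4:**
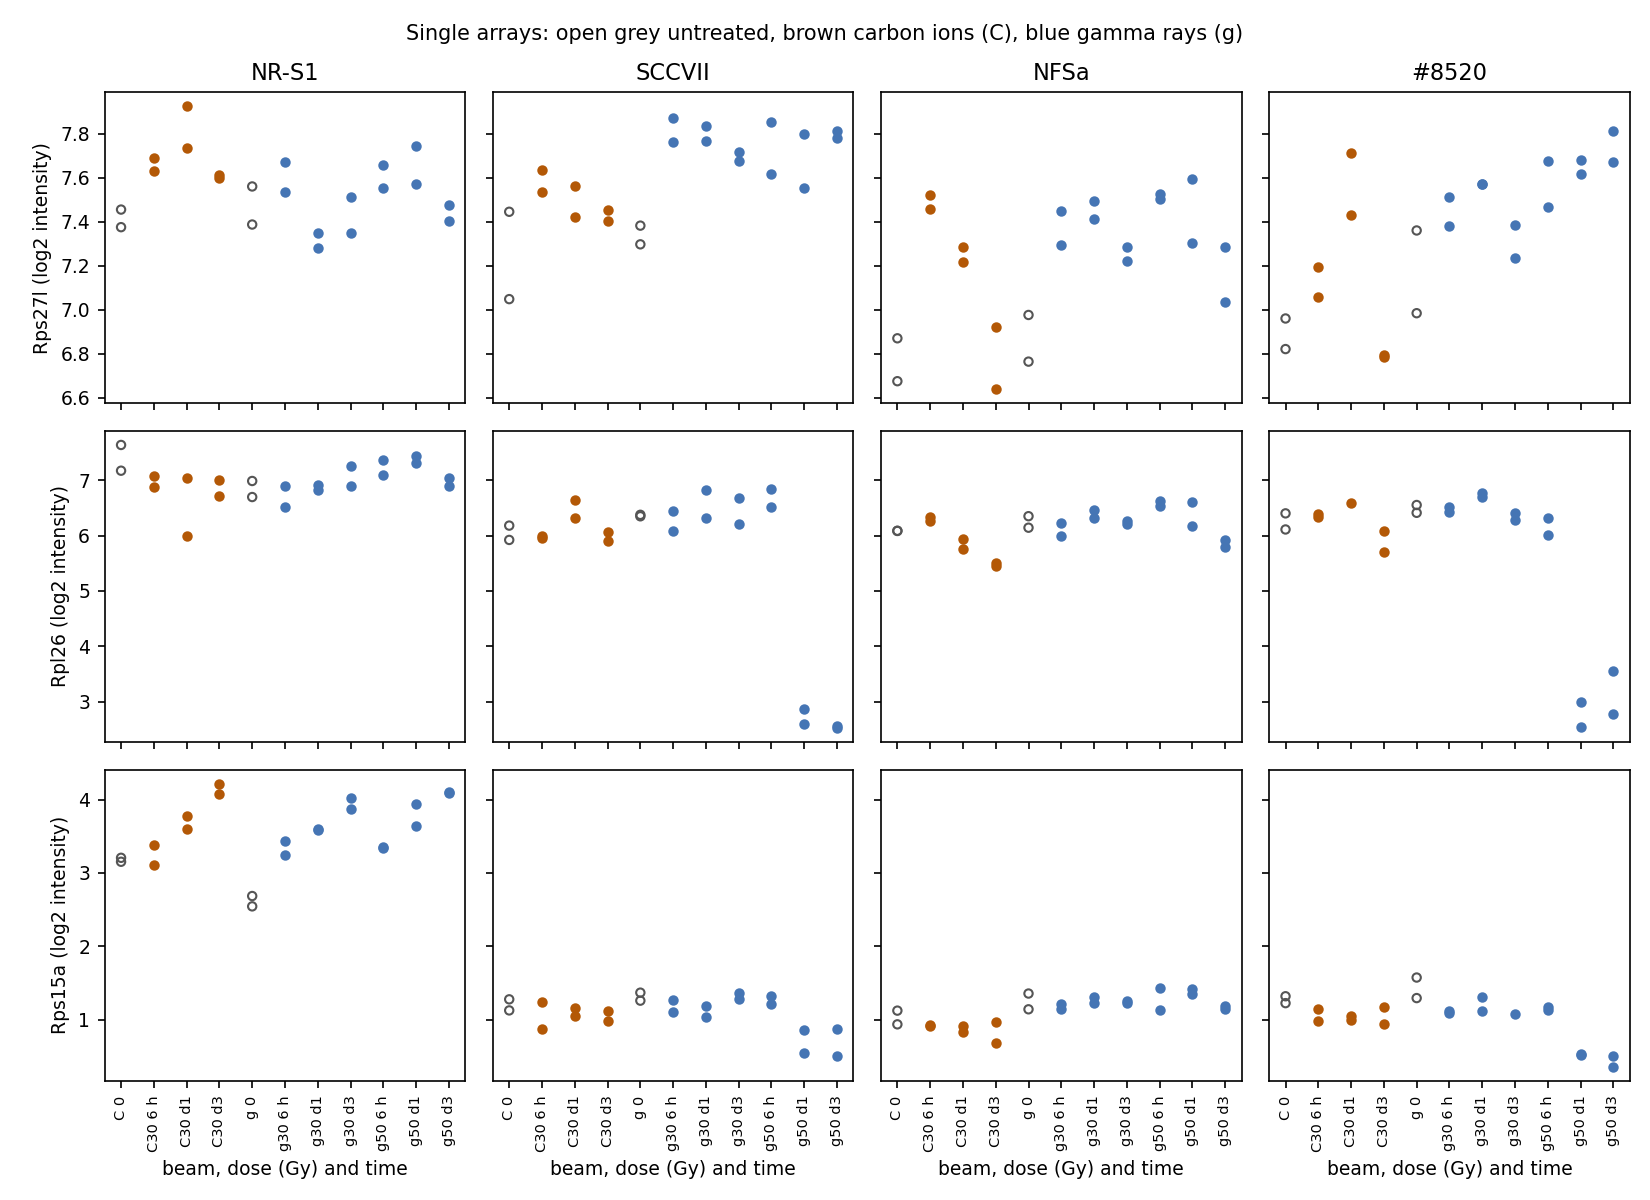
Log2 intensity of Rps27l, Rpl26 and Rps15a on every array, by tumour, beam, dose and time; each point is 1 array. Rps27l is higher on irradiated than on untreated NFSa arrays at 6 h and day 1, Rpl26 drops below 3.6 on the 8 arrays of SCCVII and #8520 at 50 Gy day 1 and 3 alone, and Rps15a climbs in NR-S1.

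Other p53 targets were measured in the same contrasts. Cdkn1a, the cell cycle inhibitor p21, was 1.27 higher at 6 h after carbon ions, Mdm2 1.503 and the cyclin Ccng1 1.52. At day 3 after carbon ions they were still 1.14, 0.74 and 0.85 higher. Of 11 p53 targets tested in the list, 9 rose and 1 fell at 6 h after carbon ions, against 40.5% of all genes called. On day 1 after 50 Gy Mdm2 was 0.23 higher (adjusted p = 0.042), against 1.05 for Cdkn1a and 1.45 for Ccng1. The values without SCCVII and #8520 were 1.24 for Mdm2, 0.87 for Cdkn1a and 1.57 for Ccng1.

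Among the Mdm2-binding proteins, the kept probes of Rpl5, Rpl11 and Rpl23, all in the bright group, gave no call on the average over tumours, except at day 1 and 3 after 50 Gy. Their averaged differences in the other 7 conditions lay between -0.12 and 0.14. Other probes, not tested singly, read lower at day 3 after carbon ions, that of Rpl11 by 0.51 and those of Rpl5 by 0.27 and 0.56. The values that follow are again those of the kept probes. At day 1 after 50 Gy they were called higher by 0.38, 0.46 and 0.37 and at day 3 by 0.33, 0.44 and 0.28 (for Rpl11 by the kept probe). The values in NR-S1 and NFSa alone were 0.10, 0.13 and 0.10 at day 1 and 0.045, 0.091 and 0.079 at day 3, none of them called. By tumour, Rpl5 was called higher in 5 of 9 conditions in SCCVII, and Rpl5, Rpl11 and Rpl23 were each called lower once in NR-S1. Rpl26, the fourth, was called lower at day 3 after carbon ions (-0.40, adjusted p = 0.0011) and on both days after 50 Gy (-1.67 and -1.85).

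The 3 stalk genes parted at day 1 after 50 Gy, but only with SCCVII and #8520 included. Differences among the 3 were not tested. At day 1 after 50 Gy Rplp0 was called 0.48 and Rplp2 0.47 higher, and Rplp1, whose probe is much dimmer, 1.34 lower. Without SCCVII and #8520 they were 0.23 (adjusted p = 0.042), 0.23 (adjusted p = 0.039) and 0.22 (adjusted p = 0.25), and at day 3, 0.13, 0.069 and -0.011, none called. At day 3 after carbon ions the values were -0.050, -0.12 and -0.24, of which only that of Rplp1 passed (adjusted p = 0.027). Rpsa, which also serves as a laminin-binding surface protein, passed on the average over tumours at day 1 and 3 after 50 Gy alone (-0.21 and -0.19), and in NR-S1 and NFSa alone it differed by 0.029 and 0.13 without a call. By tumour it was called in 2 conditions each in NR-S1 and SCCVII, 1 in NFSa and 3 in #8520.

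Rps15a rose in NR-S1, and in the other tumours it gave no call upward. Its arrays read 3.21 and 3.15 untreated in the carbon-ion arm and 4.07 and 4.22 at day 3. In the gamma-ray arm they read 2.55 and 2.69 untreated, 4.02 and 3.87 at day 3 after 30 Gy and 4.09 and 4.10 at day 3 after 50 Gy. All irradiated values at day 3 lay above the untreated ones. The differences in NR-S1 were 0.97 (adjusted p = 2e-09), 1.33 (5.4e-13) and 1.48 (9.3e-15), and at 6 h 0.066 (adjusted p = 0.75), 0.72 and 0.73. After 50 Gy it differed by -0.61 at day 1 and -0.62 at day 3 in SCCVII, and by -0.91 and -1.001 in #8520, on the arrays that stand apart. In #8520 it was also called lower at 6 h (-0.33) and day 3 (-0.36) after 30 Gy and at 6 h after 50 Gy of gamma rays (-0.28). The response to carbon ions differed between tumours at day 3 (moderated F test, adjusted p = 2.3e-08), and on the averages over tumours Rps15a passed only at day 3 after 30 Gy of gamma rays (0.24, adjusted p = 0.0014).

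Rpl7a, a large-subunit protein, fell in all 9 conditions on the average of the tumours. The differences were -0.33, -0.22 and -0.70 at 6 h, day 1 and day 3 after carbon ions, then -0.35, -0.29 and -0.53 with 30 Gy of gamma rays and -0.44, -0.41 and -0.67 after 50 Gy. The day 3 falls were widest in #8520, where it read 2.28 and 2.26 untreated and 0.61 and 0.73 at day 3 after carbon ions, a fall of 1.60, and 3.70 and 3.72 untreated and 2.55 and 2.41 at day 3 after 30 Gy of gamma rays, a fall of 1.23. NFSa fell by 0.98 at day 3 after carbon ions, while SCCVII differed by -0.00097 (adjusted p = 0.99). Both days after 50 Gy were also called in NR-S1 and NFSa alone (-0.18 and -0.44). The untreated arms themselves differed (2.25 and 2.02 against 3.54 and 3.53 in SCCVII). With the untreated arrays of both arms as the control, the 30 Gy gamma differences became 0.18, 0.24 and 0.0023 and that at 6 h after 50 Gy 0.088. The falls in those conditions thus hold against the untreated tumours of that arm only. For day 1 and day 3 after 50 Gy the values with that control are not given here.

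Rpl17, which lines the exit tunnel, rose at day 3 by 0.94 after carbon ions, 0.65 after 30 Gy and 0.53 after 50 Gy of gamma rays (0.68 in NR-S1 and NFSa alone). In #8520 it read 0.88 and 0.66 untreated and 1.92 and 1.98 at day 3 after carbon ions, and in NFSa -0.04 and -0.11 untreated and 0.98 and 1.22. The kept probe is dim, and the 2 other probes of Rpl17, with means of -0.59 and -0.79, differed by -0.26 and -0.34 at day 3 after carbon ions. The probes disagree in sign, so the rise belongs to 1 probe and not to the gene as measured here.

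Rpl3l, the muscle form of Rpl3, ranged most widely of all members. Its group means spanned 7.47 log2 units, from -2.82 in untreated SCCVII of the gamma-ray arm to 4.65 in #8520 at 6 h after 50 Gy, while the 2 arrays of a group differed by a median of 0.096. Averaged differences went both ways: 0.97 at day 1 after carbon ions, 0.72, -0.67 and -1.12 at the 3 times following 30 Gy of gamma rays, and 1.33 and -0.32 at 6 h and day 1 after 50 Gy. The day 1 value was -0.57 in NR-S1 and NFSa alone. The summed intensity of skeletal muscle markers (11 of 12 measured) moved with it, with r = 0.92 in NR-S1, 0.95 in SCCVII, 0.89 in NFSa and 0.93 in #8520 over the 11 group means of each tumour, which share arrays, scaling and control groups. Its log2 value lay between 4.43 and 9.23 in untreated groups and between 4.91 and 10.5 in the irradiated groups other than the 4 that stood apart. Of 10 muscle markers tested, 9 rose at day 1 after carbon ions, where Rpl3l rose. Arrays of a pair were far closer to each other than groups were, and the labels do not say whether they share a piece of tissue.

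**Figure D5:**
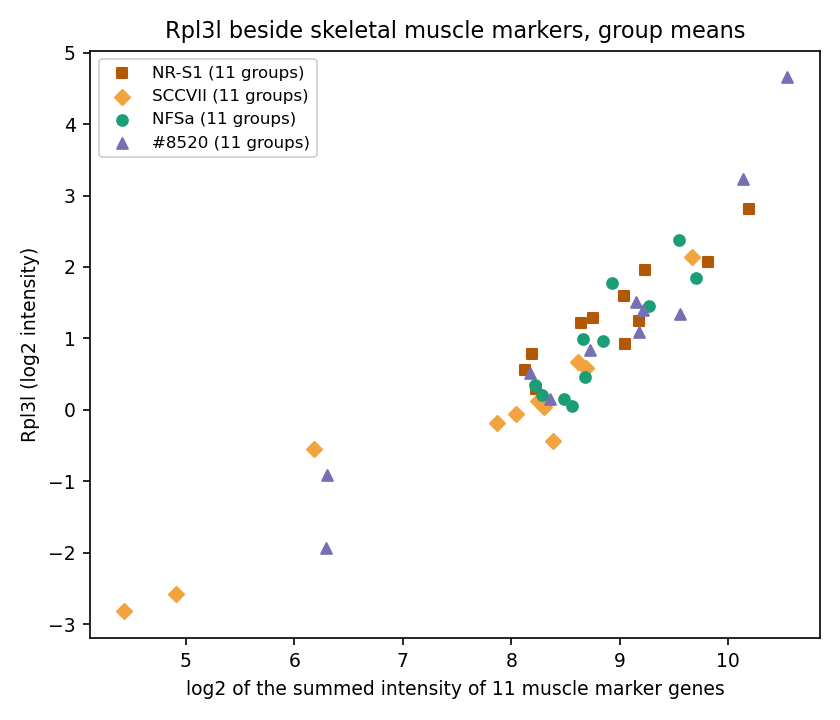
Mean log2 intensity of Rpl3l in each of the 44 groups against the log2 of the summed intensity of 11 skeletal muscle markers, coloured by tumour. Within each tumour Rpl3l rises with the muscle markers (r between 0.89 and 0.95 over 11 groups).

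The other paralog pairs gave little. Rpl39l fell by 0.22 at day 3 after carbon ions (adjusted p = 0.0009), where Rpl39 differed by -0.016 (adjusted p = 0.83). By tumour Rpl39l was lower in 3 and higher in 1 at that time, and its response passed the test for a difference between tumours. In NFSa, the only tumour where its probe was not dim, the group mean went from 5.41 to 4.70. Rpl36al, a copy of Rpl36a, fell by 0.30 at that time (adjusted p = 1.7e-05) against -0.11 for Rpl36a (adjusted p = 0.11), and Rps4x gave no call there (-0.094, adjusted p = 0.23). Rpl7l1, a nucleolar relative of Rpl7 outside the naming rule, differed by -0.23 (adjusted p = 0.094). The differences within pairs were not tested.

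Carbon ions and gamma rays of the same dose, 30 Gy, were compared through the untreated tumours of each arm. At 6 h 1 differed (Rpl3l, -0.55; 15.9% of all genes), at day 1 3 (Rpl3l 1.63 higher after carbon ions, Rpl15 0.33 and Rps13 0.27 lower; 25.1%) and at day 3 14 (2 higher, 12 lower; 36.0%). At day 3 Rpl3 was 0.47, Rpl26 0.44 and Rps7 0.43 lower after carbon ions, and Rpl3l 1.57 and Rpl17 0.29 higher. After quantile normalization 3 differed at 6 h (1 lower), 5 at day 1 (4 lower) and 4 at day 3, 2 of them lower, with Rpl26 at -0.32 (adjusted p = 0.11). Centring gave 13 at day 1 (12 lower) and 22 at day 3 (20 lower). With untreated arrays of both arms as the control the counts were 50, 51 and 51, most of them higher after carbon ions, and at day 3 Rpl3 turned to 0.078 and Rps7 to 0.24, so their direction depended on the control, while Rpl26 stayed at -0.48, Rpl3l at 1.66 and Rpl17 at 0.48. The day 1 count was 12 without replicate 1 and 1 without replicate 2 of NR-S1 at day 1 after carbon ions, 5 without replicate 1 and 1 without replicate 2 of untreated SCCVII of the carbon-ion arm, and 6 and 1 without replicate 1 or 2 of the gamma-ray arm. It was 5 without replicate 3 and 1 without replicate 4 of #8520 at day 1 after gamma rays, and 1 without replicate 2 of SCCVII or NFSa at day 1 after carbon ions, replicate 1 of untreated NFSa of the carbon-ion arm or replicate 4 of NR-S1 at day 1 after gamma rays. The 6 h count was 2 without replicate 2 of untreated SCCVII of the carbon-ion arm or replicate 1 of untreated NFSa of the gamma-ray arm, and 0 after leaving out 50% of genes by dimness.

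The response to carbon ions differed between the tumours in 6 members at 6 h (45.0% of all genes), 16 at day 1 (58.3%) and 24 at day 3 (61.9%). After quantile normalization these were 5, 8 and 6. The day 1 count was 28 without replicate 1 of NR-S1 at day 1, and the day 3 count was 11 without replicate 1 of untreated NR-S1 or replicate 2 of untreated SCCVII and 10 without replicate 1 of NR-S1 at day 3.

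Genes that make ribosomes were tested beside the ribosomal proteins. Of 42 ribosome biogenesis genes tested, 17 fell and 3 rose at 6 h after carbon ions, with a median of -0.14 (47.6% called, against 40.5% of all genes). At day 3 after carbon ions 39 fell and none rose, with a median of -0.48 (92.9% called, against 68.2%). The nucleolar proteins Nop58 (-0.98), Gar1 (-0.92), Nolc1 (-0.88) and Nop56 (-0.85) led. At day 3 after gamma rays 32 fell and none rose after 30 Gy (76.2% called, against 54.1%) and 37 fell and none rose after 50 Gy (88.1%, against 73.4%). In NR-S1 and NFSa alone 17 of 42 fell and none rose at day 3 after 50 Gy, a smaller share than the 46.2% of all genes called there.

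At day 3, mitochondrial ribosomal protein genes were called about as often as all genes or less. Of 70, 49 fell and none rose at day 3 after carbon ions (70.0% called, against 68.2% of all genes; median -0.24), and 22 fell and 4 rose after 30 Gy of gamma rays (37.1%, against 54.1%). After 50 Gy 47 fell and 3 rose at day 3 (71.4%, against 73.4%), and in NR-S1 and NFSa alone 12 of 70 fell and 3 rose, against 46.2% of all genes called. The difference between lists was not tested.

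Of 35 translation factors and other TOP genes tested, 31 fell and 1 rose at day 3 after carbon ions, with a median of -0.38 (91.4% called, against 68.2% of all genes), led by the poly(A)-binding protein Pabpc4 (-0.90), Nap1l1 (-0.79), Eif3a (-0.68) and Eif4b (-0.59). At day 3 after 30 Gy of gamma rays 13 of 34 fell and none rose (38.2%, against 54.1%, with a median of -0.080). After 50 Gy 23 fell and 4 rose, against 73.4% of all genes called. In NR-S1 and NFSa alone 13 of 35 fell and none rose, against 46.2% of all genes called. Of 17 genes that act on mTORC1, TOP mRNAs or Myc, 10 fell and 6 rose at day 3 after carbon ions, with Myc, which drives ribosomal protein genes, at -0.72 (adjusted p = 1.5e-09), the mTORC1 inhibitor Ddit4 at -0.51 and Sesn1 at 0.58. At 6 h after carbon ions Sesn2, a p53 target that restrains mTORC1, rose by 1.01. Mitosis genes fell in 15 of 15 cases at day 3 after carbon ions, with a median of -1.36, and of 10 T and NK cell markers tested 10 rose, with a median of 1.93. For these 2 lists and the 17 genes above, too, the share of all genes called at day 3 after carbon ions was 68.2%.

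The genes most like the members' mean were mostly bright ones. Over the 40 group means outside the 4 that stood apart, each tumour and arm centred, the highest Pearson correlations were those of Rps3a1 (0.87), a ribosomal protein gene outside the naming rule, Txndc11 (0.87), the elongation factor subunit Eef1d (0.87), Pde6g (0.87), Myh9, Txn1, Tpt1, Eef1g, Tuba1b and Myl6 (0.83). Of these 10, 9 belonged to the bright group, and Pde6g was near the upper end on 0 arrays. The points share the scaling of their arrays.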

How the data were processed

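RNA of 88 samples was hybridised to one-colour arrays with Cy5 by the CodeLink labelling protocol, per the labels. The authors deposited a linear intensity for each of 36227 probes, with array medians between 1.02 and 1.07, 0.751% of values missing and 0.149% not above 0. The scanner, background method and scaling rule were not given in the sources used here, and no saturation flags were used. Groups came from the sample titles. Of the probes, 21615 had 1 gene symbol and 681 several; symbols were updated through Entrez numbers for 21487 probes to a RefSeq table of GRCm38.p6, used for names and promoters.

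After values not above 0 were dropped as missing, the log2 of each intensity was used with no added scaling. Genes in the lowest 25% of mean, or with values on under 80% of arrays, were left out, and 13465 were fitted in limma 3.58.1 (R 4.3.3) with a mean per group (44 residual degrees of freedom). Contrasts took untreated arrays of the same tumour and arm and p-values were adjusted by Benjamini-Hochberg over all genes tested, two-sided, called under 0.05. With 2 arrays per group their number limits the precision. The script was tested on simulated data. Replicate numbers were not taken to pair the samples: over 68 pairs of same-numbered arrays the correlation of deviations ran from -0.19 to 0.39 (median 0.015, 16 over 0.1). In the NFSa gamma-ray arm 9 of 11 pairs were over 0.1, but the lowest was -0.11, so that not every pair was.

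Named genes were, per comparison, the 5 members with the largest rise and fall among those called, the paralogs, Mdm2-binding, stalk and control genes, and up to 4 leaders of each other list. The members and lists were chosen with earlier results of these data known. Rps3a1 and genes given for brightness or disagreement between probes were named after their values were seen. Alternatives were quantile normalization, centring, an offset of 0.0358 before log2, other filters, the mean of all probes, an intensity trend with a robust prior, only the arrays compared, untreated arrays of both arms, a replicate block, leaving out each array in turn and leaving out the 8 arrays that stand apart.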

Additional observations from a re-analysis of the deposited data

Results flagged for a closer look

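Some members responded differently in different groups by a test of the difference itself. The response to 50 Gy of gamma rays differed between SCCVII and #8520 and the other tumours in 48 of 57 members at day 1 (63.6% of all genes). At day 3 it differed in 50 (62.7%). The irradiated arrays of SCCVII and #8520 in that test are those that stand apart, and quantile normalization gave far fewer members, as stated in the text. The response to 30 Gy differed between carbon ions and gamma rays in 1 member at 6 h, 3 at day 1 and 14 at day 3. The response to carbon ions differed between the 4 tumours in 6 members at 6 h, 16 at day 1 and 24 at day 3. In each case except that of the 50 Gy groups the share of members was below the share of all genes given in the text.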

How the results depend on the processing

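Of the counts and values recomputed for the main comparisons, 498 stayed within their limits and 83 moved; of single members, 3015 kept direction and call, 182 lost the call, 32 reversed and 1 gained it. Limits are the upper end of the arrays, where most members lie, and 2 arrays per group.

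Quantile normalization gave 4 and 11 members called at day 1 and 3 after carbon ions, 6 at day 1 after 30 Gy of gamma rays, and 6, 22 and 24 at 6 h, day 1 and day 3 after 50 Gy. It gave 19 and 24 in SCCVII, 22 and 19 in #8520, 19 and 23 for the difference between the tumour pairs, 3, 5 and 4 between beams, 8 and 6 between tumours at day 1 and 3 and 18 in untreated tumours. Centring on the array median gave 30 and 15 at day 1 and 3 after 30 Gy of gamma rays, 35 at 6 h after 50 Gy, and 2, 13 and 22 between beams. Untreated arrays of both arms gave 49, 48 and 43 after carbon ions, 46, 46 and 48 after 30 Gy and 43 and 30 at 6 h and day 3 after 50 Gy of gamma rays, 50, 51 and 51 between beams, and 46 and 44 between tumours at 6 h and day 1. NR-S1 and NFSa alone gave 16 and 6 at day 1 and 3 after 50 Gy. Leaving out the dimmest 50% gave 0 between beams at 6 h, fitting only the arrays compared gave 4 at day 1 after carbon ions, and leaving out the 8 arrays that stand apart gave 5 between beams at day 1. With the replicate number as a block the count at 6 h after carbon ions was 4; the block could not be fitted for gamma rays at day 1, whose arrays carry other numbers. The causes were not tested.

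Leaving out 1 array at a time gave 2 to 4, 5 to 34 and 18 to 26 members at 6 h, day 1 and day 3 after carbon ions, 3 to 8, 7 to 23 and 4 to 9 after 30 Gy and 8 to 25, 45 to 53 and 46 to 50 after 50 Gy of gamma rays. It gave 46 at day 1 and 44 to 46 at day 3 in SCCVII, 48 to 53 and 47 to 53 in #8520, 43 to 48 and 46 to 51 for the tumour pairs, 1 to 2, 1 to 12 and 11 to 19 between beams, 5 to 8, 12 to 28 and 10 to 30 between tumours and 53 to 57 in untreated tumours.

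Single members reversed as follows. In NR-S1 and NFSa alone at day 1 after 50 Gy, Rpl8 was at 0.20, Rps9 0.28, Rplp1 0.22, Rpl26 0.34 and Rps24 0.062. With the mean of all probes, Rpl27a was at -0.26 and -0.35 at day 1 and 3 after 50 Gy, -0.64 and -0.90 in SCCVII and -0.83 and -0.75 for the tumour pairs, Rpl11 at -0.17 for the pairs at day 1 and Rpl17 at 0.013 at 6 h after 50 Gy. With untreated arrays of both arms, Rpl7a was at 0.18, 0.24 and 0.0023 at the 3 times after 30 Gy of gamma rays and 0.088 at 6 h after 50 Gy. There Rpl27 was at -0.22, Rps13 at -0.043 and Rplp1 at -0.024 at 6 h, Rps13 at -0.050 and Rps7 at -0.11 at day 1 and Rpl39l at 0.044 at day 3 after 30 Gy, and Rpl31 at -0.058, Rplp1 at -0.020 and Rpl6 at -0.18 at 6 h after 50 Gy. Between beams Rps13 was at 0.21 and Rpl15 at 0.088 at day 1, and Rpl27 at 0.38, Rpl36al at 0.14, Rps7 at 0.24 and Rpl3 at 0.078 at day 3.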
